A study of Mus musculus with 2 samples.

Results

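One comparative genomic hybridization (CGH) array described the genome of *H19*Δ2, 1 of 2 engineered androgenetic haploid embryonic stem cell (AG-haESC) lines, relative to its parental line AGH-OG-3. It was chosen as the array whose Cy5 channel is labelled H19Δ2, which is 1 of the 2 arrays in the series. Both the line and its reference are haploid mouse ESCs from androgenetic blastocysts, carry the *Oct4* promoter-driven *eGFP* transgene and were grown with serum, leukemia inhibitory factor, CHIR99021 and PD0325901, with feeder cells depleted by settling before DNA was taken. AGH-OG-3 has an unmodified *H19-Igf2* locus. *H19*Δ2 is a clone from which *H19* and its imprinting control region were deleted by CRISPR-Cas9 with a targeting vector that carries a *loxP*-flanked *PGK-neo* cassette, and its haploid cells were enriched by flow cytometry. A C57BL/6 background was stated for *H19*Δ1, which came from the same parental line. Passage numbers of the hybridized DNA were not given in the sources used here. *H19*Δ2 DNA carried Cy5 and AGH-OG-3 DNA carried Cy3, so a probe's log2 ratio of Cy5 to Cy3 measures copies in *H19*Δ2 relative to AGH-OG-3. The *H19*Δ1 array, hybridized against the same reference line, is given beside it. With 1 array per line and no dye swap there is no replicate and no test, and an error is the SD over the probes of a region.

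An AG-haESC holds only a paternal genome, and it can take the place of sperm when it is injected into an oocyte. With a single set of chromosomes there is no second allele to cover a deletion, and an additional copy changes dosage more than it would in a diploid cell. ES cells are known to acquire copy number changes in culture, and array CGH is a usual way to look for them. In a haploid line compared with a haploid reference, a log2 ratio of 1 would mark 1 additional copy in every cell. A region missing from every cell would leave only background signal in Cy5. This scale holds only where the hybridized cells were haploid. The line was sorted repeatedly for haploid cells, and the array ratios do not give ploidy. In a cell that had become diploid, 1 additional copy would give a log2 ratio below 1. A ratio does not tell a gain in the line from a loss in the reference.

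Of 170305 probes on the *H19*Δ2 array, 170230 were measured after 211 outlier spots of 174305 were left out, and 161388 of these lie on the autosomes, with a median distance of 10844 bp between neighbors. In either channel 99.9% of spots stood well above background. The log2 ratios were centered on the autosomal median, and the noise of a single probe, taken from differences between neighbors, was 0.12. The deposited positions are on the mm9 build and come without gene names. No mm9 annotation was used here, so the gene content of the regions was not analysed here and regions are given by position.

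The engineered locus was read first. The guides of the CRISPR-Cas9 plasmids used to make the deletion are shown because they cut on either side of the deleted region. In each oligonucleotide below the last 20 bases are in capitals, and the bases in lower case precede them.
sgRNA-4: caccgACCACTGCAGGCATCGACGT
sgRNA-7: caccGTCCCTCTCACATCCTGCTC
*H19* is a long non-coding RNA expressed from the maternal allele, and *Igf2*, its imprinted neighbor, encodes a fetal growth factor. In the RefSeq gene order of GRCm38, *Mrpl23* and *Nctc1* precede *H19*, and *Igf2*, *Mir483* and *Ins2* follow it. The *H19* gene also holds *Mir675*, whose mature products are shown with the seed, bases 2 to 8, in capitals (RefSeq, GRCm38.p6), since they are encoded in the transcription unit that was targeted.
mmu-miR-675-5p: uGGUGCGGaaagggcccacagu
mmu-miR-675-3p: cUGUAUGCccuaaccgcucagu

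On chromosome 7, which holds *H19*, 2 neighboring probes were below -2 in both lines, and they were picked by these values. They were taken as the targeted locus because both lines were made with this deletion. Without an mm9 annotation their position was not set against the *H19* gene, so their low ratios are a description and not a check of the deletion. At the probe from 149761403 to 149761462, the *H19*Δ2 array had a Cy3 signal of 2450 and a Cy5 signal of 190, a log2 ratio of -3.70. This probe was well above background in Cy5, so 7.71% of the reference signal was left. At the probe from 149768746 to 149768805, Cy3 was only 229 and Cy5 was 30.6, which was not well above background. The measured ratio of this dim probe was -2.92. With its Cy5 raised to 53.5, the dimmest Cy5 on the array that still passed as well above background, the probe was at least 4.31-fold lower. The 4 probes to the left lay between -0.20 and 0.18 and the 4 to the right between -0.08 and 0.35. No further probe lay between these, and the interval they mark was at least 7.40 kb and at most 27.8 kb long.

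Outside that locus the *H19*Δ2 genome differed from AGH-OG-3 in 15 autosomal segments, 12 higher and 3 lower. A segment was counted where its mean was 0.25 or more in size over at least 5 probes, and adjoining segments of one sign were joined. The gains held 3014 probes, or 1.87% of the autosomal probes, and spanned 55.6 Mb. The losses held 29 probes, or 0.0180%, and spanned 244 kb. A single gain on chromosome 12 made up 83.0% of the gained length, and the other 11 gains together spanned 9.47 Mb. Segments lay on 12 of the 19 autosomes, and chromosomes 1, 7, 10, 15, 16, 18 and 19 held none. Over all autosomal probes, 4.26% had a log2 ratio of 0.25 or more and 2.73% had one of -0.25 or less. Outside the counted segments these shares were 2.52% and 2.77%, so probes past 0.25 on the high side were more frequent inside the gains, as the choice of segments fixes. The levels of the gains ran from 0.26 to 0.64, with a median of 0.43, and no autosomal probe reached 1, the highest being 0.99. By the same count *H19*Δ1 had 12 segments, 6 higher and 6 lower, of which 9 overlapped a segment of *H19*Δ2.

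**Figure D1:**
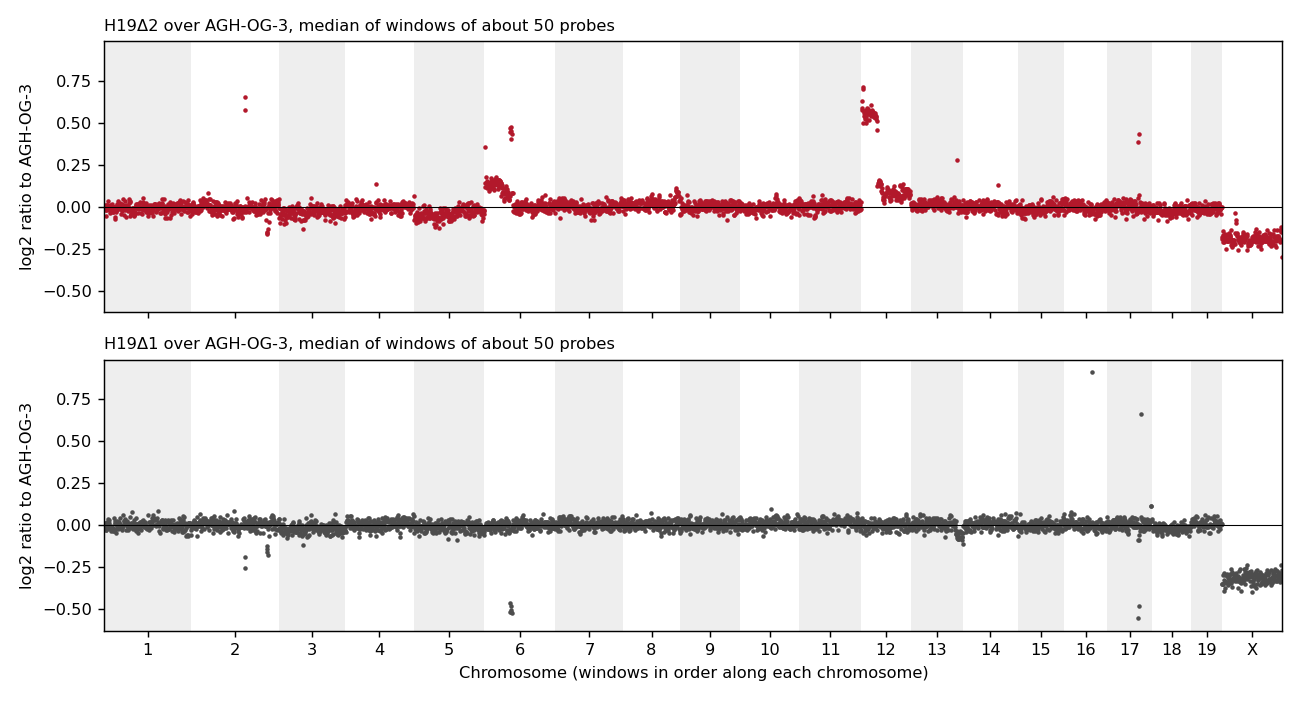
Log2 ratios along the autosomes and chromosome X, each point the median of a window of about 50 probes, with *H19*Δ2 in the upper panel and *H19*Δ1 in the lower and chromosomes in alternate shading. Windows of *H19*Δ2 on proximal chromosome 12 stand near 0.55 and proximal chromosome 6 near 0.14, whereas *H19*Δ1 is near 0 there; losses of 16 probes or fewer do not show at this window size.

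The gain on chromosome 12 was the longest of the 15 counted segments. It began at the first probe of the chromosome, at 3102541, and ended at 49267874, a length of 46.2 Mb with 2323 probes. Mouse chromosomes carry the centromere at this end. The mean log2 ratio was 0.55 ± 0.13, or 1.47 times the typical autosomal probe, and 98.1% of its probes were at 0.25 or more. Over all autosomal probes that share was 4.26%, and the choice of segments by their mean favors a higher one. In *H19*Δ1 the probes of this gain were at -0.0061 ± 0.12. In 10 equal parts of the gain the means ran from 0.52 to 0.62, so the level was close to even along its length.

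Within this gain the segmentation placed a higher and a lower step. The 113 probes from 4648434 to 6104440 had a mean of 0.69 ± 0.13, against 0.57 ± 0.14 over the 142 probes before them and 0.54 ± 0.12 over the 366 probes after them. In *H19*Δ1 these 113 probes were at 0.0047 ± 0.11. The step up from the following piece was 0.16 on the log2 scale, or 1.62 against 1.45 times the typical autosomal probe. The lower step, 18 probes from 13287399 to 13472545, was at 0.35 ± 0.27, and there *H19*Δ1 was lower as well, at -0.11 ± 0.27. Both lines dipped in this short stretch, and its probes scattered more than those around it. The remaining 1684 probes up to the border were at 0.55 ± 0.13.

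Distal chromosome 12, which holds the imprinted *Dlk1-Dio3* domain, did not return to 0. From 49303600 to 58206273, a further 8.90 Mb with 589 probes, the mean was 0.13 ± 0.12, and from 58213332 to the last probe, 63.0 Mb with 4231 probes, it was 0.08 ± 0.12. *H19*Δ1 was at 0.0073 ± 0.12 and 0.00074 ± 0.12 over the same probes. The whole of chromosome 12 therefore lay above 0 in *H19*Δ2, in 3 levels that fell from the centromeric end. The noise of a single probe, 0.12, was of the size of the first of these distal levels and above the second, so they could be read only from the mean of many probes.

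**Figure D2:**
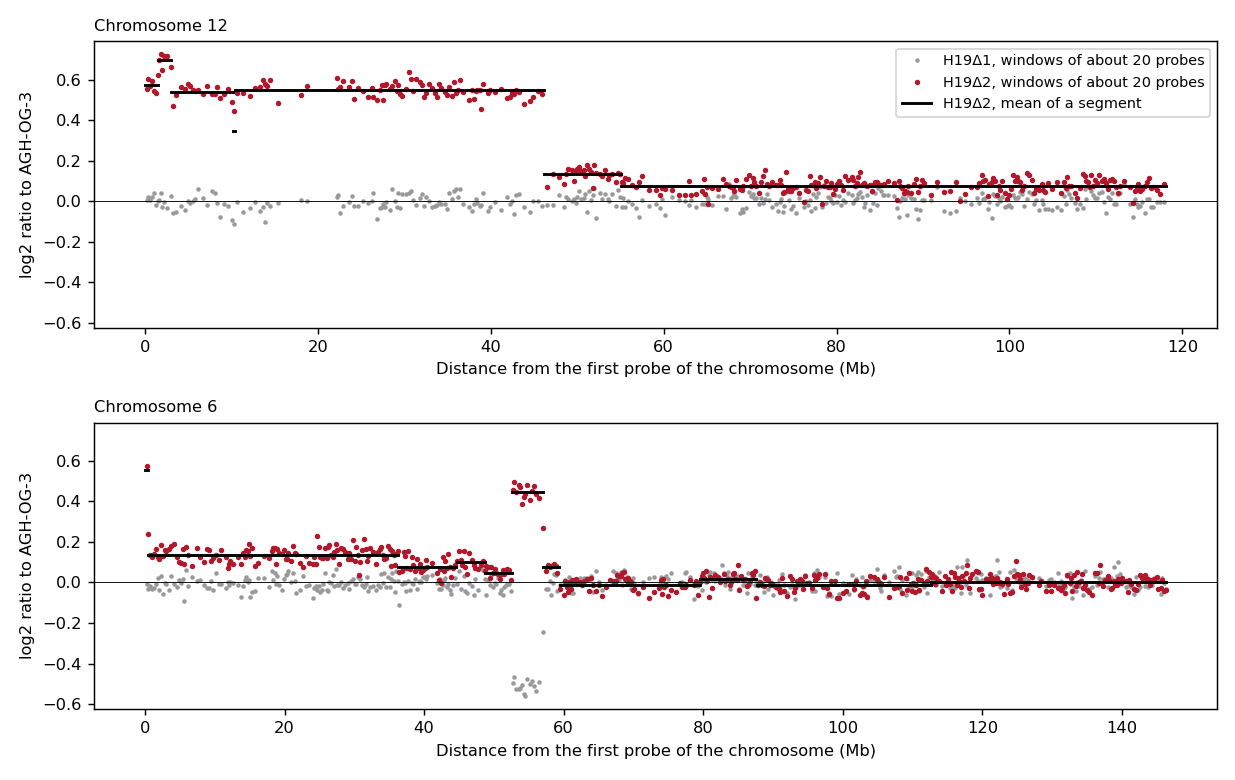
Log2 ratios of *H19*Δ2 and *H19*Δ1 against the distance in Mb from the first probe of chromosome 12 (upper panel) and chromosome 6 (lower panel). Points are medians of windows of about 20 probes and black lines are segment means of *H19*Δ2 with at least 18 probes. On chromosome 12 these fall from 0.55 at the end of the gain to 0.13 and 0.08.

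Chromosome 6 held 2 counted gains and, around them, a low rise like that of distal chromosome 12. The first gain started at the first probe of the chromosome, at 3131098, and ended at 3571947, with 27 probes and a mean of 0.56 ± 0.12. *H19*Δ1 was at 0.0072 ± 0.11 there, and the lowest *H19*Δ2 probe, 0.24, was above the highest *H19*Δ1 probe, 0.23. The segment was picked by its *H19*Δ2 level, which favors such a gap. The level then fell to 0.14 ± 0.12 over the next 35.9 Mb, from 3583826 to 39448381 with 2416 probes, where *H19*Δ1 was at -0.00024 ± 0.12. Beyond that it went to 0.08 ± 0.13 up to 47758273, 0.10 ± 0.12 up to 51796674 and 0.05 ± 0.12 up to 55761151. The second gain, from 55782881 to 60204117, held 289 probes over 4.42 Mb at 0.45 ± 0.13, and *H19*Δ1 was at -0.50 ± 0.14. After it *H19*Δ2 was at 0.07 ± 0.13 up to 62507568 and at -0.01 ± 0.12 over the following 20.1 Mb. The segmentation thus placed the end of the rise between 62507568 and 62546677. Both levels there were below the noise of a single probe, so this border was less certain than those of the counted gains. The median of chromosome 6 was 0.05, the highest of any autosome but chromosome 12.

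The deepest of the counted segments were 2 short losses, on chromosomes 3 and 9, in which Cy5 fell close to background. On chromosome 3 the 16 probes from 136446249 to 136571422, 125 kb, had log2 ratios from -5.93 to -1.85 with a median of -3.53. Cy5 signals ran from 10.5 to 137 and Cy3 signals from 185 to 1724, and 8 of the 16 probes were not well above background in Cy5. The 8 probes that were had a mean of -3.05 ± 0.81. With the dim probes at their bound, Cy5 was at least 7.38-fold lower. The same probes were at 0.82 ± 0.10 in *H19*Δ1, with none below 0.63. The outer probes fixed the length at no more than 148 kb, and they were at -0.16 on the left and 0.17 on the right.

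On chromosome 9 the loss covered 7 probes from 100658274 to 100701368, 43.1 kb and at most 65.4 kb. In order along the chromosome the log2 ratios were -3.62, -2.95, -4.25, -2.38, -3.60, -4.80 and -4.78. All 7 were far below both neighbors, which stood at 0.04 and -0.10. Cy5 was not well above background at 4 of the 7, and as a bound the whole segment was at least 10.4-fold lower. The 3 probes above background had a mean of -2.99 ± 0.62. In *H19*Δ1 these 7 probes were at 0.84 ± 0.12. Over the probes well above background, Cy5 was 8.26-fold lower than Cy3 on chromosome 3 and 7.92-fold lower on chromosome 9. These 2 values leave out the dimmest probes of each loss, among them the deepest probe of each.

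The third loss was of another kind. The 6 probes on chromosome 2 from 168582142 to 168657639 had log2 ratios of -0.38, -0.48, -0.39, -0.42, -0.36 and -0.49, a mean of -0.42 ± 0.05. *H19*Δ1 had -0.37 ± 0.12 at the same probes and the same borders. Between the arrays the Cy5 signal differed there by -0.04 on the log2 scale, so the lower ratio was common to both lines and did not set *H19*Δ2 apart.

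**Figure D3:**
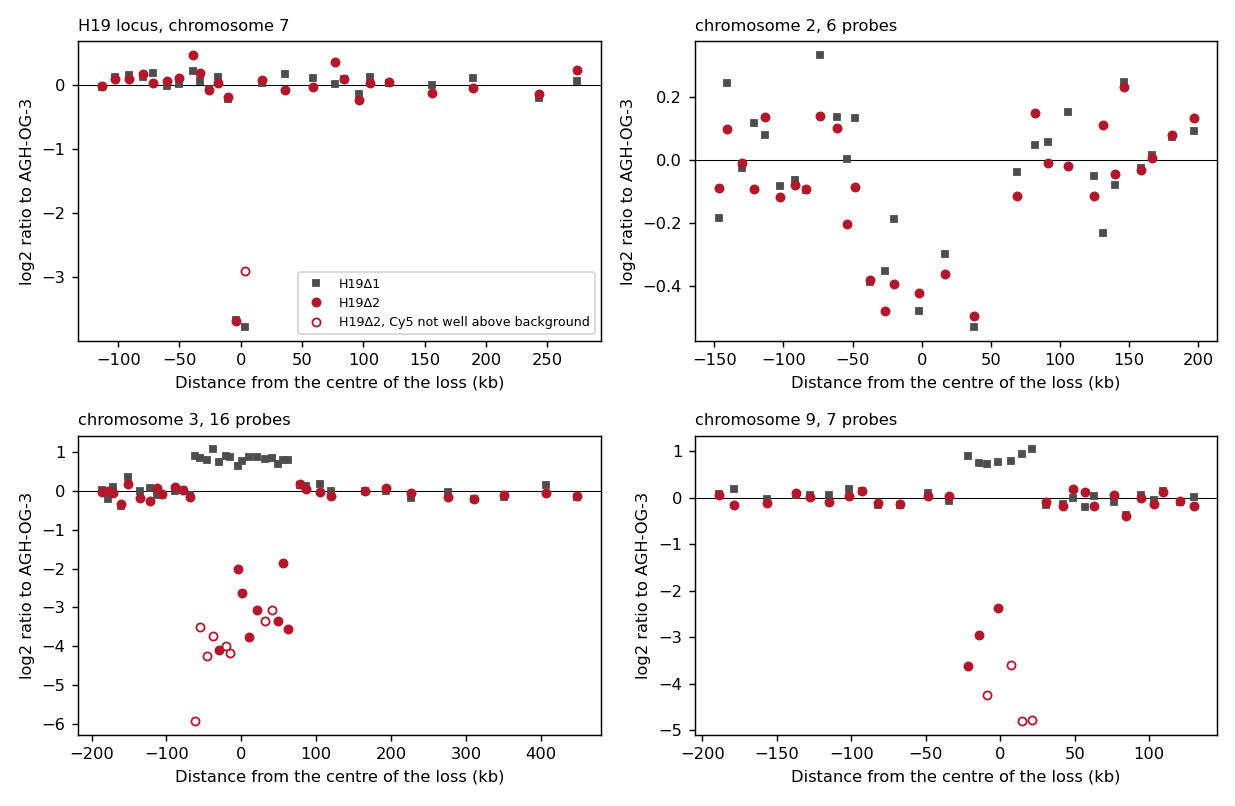
Log2 ratios of single probes against the distance in kb from the centre of each loss, with the engineered *H19* locus at the upper left; circles are *H19*Δ2 (open where Cy5 was not well above background) and squares are *H19*Δ1. *H19*Δ1 falls with *H19*Δ2 at the *H19* locus and at the 6 probes on chromosome 2, and stands at 0.82 and 0.84 where *H19*Δ2 is lost on chromosomes 3 and 9.

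Besides the second gain of chromosome 6, 4 gains of *H19*Δ2 covered probes whose mean in *H19*Δ1 was below 0 by 0.2 or more. On chromosome 2 the 83 probes from 112290454 to 113249742, 959 kb, were at 0.64 ± 0.11 in *H19*Δ2, with the lowest at 0.20, the median at 0.65 and the highest at 0.91. *H19*Δ1 was at -0.26 ± 0.11, its highest probe at -0.0089. Neighboring probes of *H19*Δ2 were at 0.02 and -0.18, so both borders were crossed within 1 probe.

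On chromosome 5 the 10 probes from 81801562 to 81883668, 82.1 kb, had log2 ratios from 0.57 to 0.76 in *H19*Δ2, a mean of 0.64 ± 0.06. *H19*Δ1 was at -0.26 ± 0.14. This gain sat inside a chromosome that was otherwise slightly low, at -0.05 ± 0.13 over the 1228 probes before it and -0.08 ± 0.13 over the 486 probes after it. On chromosome 4 the 29 probes from 82064724 to 82474141, 409 kb, were at 0.38 ± 0.11 in *H19*Δ2 and at -0.49 ± 0.19 in *H19*Δ1. On chromosome 17 the 132 probes from 65493402 to 67027256, 1.53 Mb, were at 0.42 ± 0.13 and -0.52 ± 0.14. In each of these 5 gains every *H19*Δ2 probe was above every *H19*Δ1 probe of the same gain. The closest was chromosome 6, with 0.07 as the lowest in *H19*Δ2 and 0.04 as the highest in *H19*Δ1. Such separation is favored by the choice of gains that were high in *H19*Δ2 and at least 0.2 below 0 in *H19*Δ1.

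The 5 gains fell into a higher pair, chromosomes 2 and 5 at 0.64, and 3 lower ones, chromosomes 6, 17 and 4 at 0.45, 0.42 and 0.38. In *H19*Δ1 the same pair was also the higher and nearer to 0, at -0.26, with the other 3 between -0.52 and -0.49. Between the lines all 5 differed by similar amounts, from 0.87 (chromosome 4) through 0.90 (chromosomes 2 and 5) to 0.94 (chromosome 17) and 0.95 (chromosome 6). Neighbors in the order of levels, such as chromosomes 6 and 17, differed by less than the SD over their probes, as did chromosomes 17 and 4. That SD is the scatter of single probes and not the precision of a mean, so it does not show that the levels are alike. The 2 arrays share the AGH-OG-3 reference, so they are not independent measurements of these probes. The 4 longer gains were close to even within themselves: in 3 equal parts the means ran from 0.63 to 0.66 on chromosome 2, 0.35 to 0.43 on chromosome 4, 0.42 to 0.47 on chromosome 6 and 0.40 to 0.42 on chromosome 17.

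**Figure D4:**
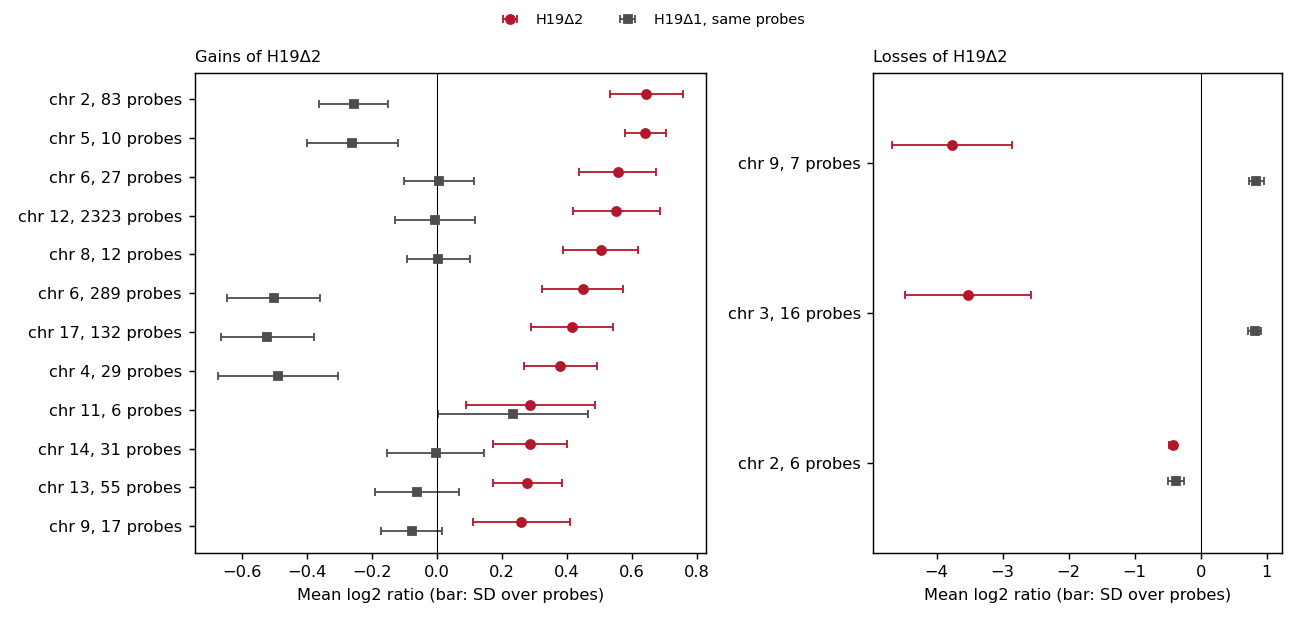
Mean log2 ratio of each of the 12 gains (left) and 3 losses (right) of *H19*Δ2, with the same probes in *H19*Δ1; bars are the SD over probes regions are named by chromosome (chr) and number of probes, and the panels have different scales. The gains of *H19*Δ2 lie between 0.26 and 0.64, whereas *H19*Δ1 is on the other side of 0 at 5 of them by 0.2 or more in size and on the same side at the 6 probes of chromosome 11.

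Further short gains appeared on chromosomes 8, 9, 13 and 14, where *H19*Δ1 lay within 0.08 of 0. The largest in level was on chromosome 8, where 12 probes from 87073437 to 87177868, 104 kb, were at 0.50 ± 0.12, between 0.23 and 0.68. *H19*Δ1 was at 0.0044 ± 0.10 and did not go above 0.13. The probes of the lines thus did not overlap, which the choice of a segment high in *H19*Δ2 favors. On chromosome 13, 55 probes from 107026849 to 108071279, 1.04 Mb, were at 0.28 ± 0.11, or 1.21 times the typical autosomal probe, and at -0.06 ± 0.13 in *H19*Δ1. On chromosome 14, 31 probes from 75128532 to 75395050, 267 kb, were at 0.29 ± 0.11 and at -0.0035 ± 0.15. On chromosome 9, 17 probes from 7042915 to 7210623, 168 kb, were at 0.26 ± 0.15 and at -0.08 ± 0.09. At this level single probes of the lines overlapped: on chromosome 9 *H19*Δ2 ran from 0.0042 to 0.55 and *H19*Δ1 from -0.30 to 0.07. Of the 12 gains, these last 3 and the one on chromosome 11 had fewer than 75% of their probes at 0.25 or more. The shares were 61.8%, 54.8%, 58.8% and 33.3% for chromosomes 13, 14, 9 and 11. Over all autosomal probes the share was 4.26%, and the choice of segments with a mean of 0.25 or more favors a higher one.

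The gain on chromosome 11 rested on the fewest probes of the 12. It lay at the first probes of the chromosome, from 3030764 to 3074178, and its 6 log2 ratios were 0.10, 0.17, 0.20, 0.50, 0.58 and 0.19. Only 2 of them were at 0.25 or more. *H19*Δ1 had 0.0045, 0.12, 0.19, 0.45, 0.58 and 0.06, the same pattern probe by probe, and the means were 0.29 ± 0.20 and 0.24 ± 0.23. These probes were bright, with a median Cy3 signal of 14764 against 1011 over the array. Whether their brightness bears on the ratio was not tested. With the median in place of the mean the segment was no longer counted, its median being 0.19.

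The differences between the arrays were also read in the single channels. In the 15 segments the Cy3 signal of AGH-OG-3, which was on both arrays, differed between them by no more than 0.06 in size on the log2 scale, relative to the other probes. Cy5 was higher in *H19*Δ2 by 0.54 in the chromosome 12 gain, 0.52 in the first gain of chromosome 6 and 0.51 in that of chromosome 8. For the gains of chromosomes 9, 13 and 14 it was higher by 0.32, 0.30 and 0.25. This places the differences between the lines in Cy5 and does not separate a gain in a line from a loss in the reference. On chromosomes 2 (the loss) and 11 Cy5 differed by only -0.04 and 0.02.

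The borders were also compared. Of the 15 segments, 7 had both borders at the same probes as a segment of *H19*Δ1, 1 had 1 border in common and 7 had none. The 1 border in common was that of the chromosome 11 gain at the first probe of the chromosome, so it marks no breakpoint. The right border of that gain was not shared. The 7 with none were the gains on chromosomes 5, 8, 12, 13 and 14, the first gain of chromosome 6 and the gain of chromosome 9. On chromosome 5 *H19*Δ1 was nevertheless low over the same stretch, as given above. Of the 12 gains 3, on chromosomes 6, 11 and 12, started at the first probe of their chromosome, and none of the 15 segments reached a last probe. For the 12 segments with a measured probe on each side, the borders were fixed to between 12.8 and 86.6 kb in all, as the sum of both gaps.

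The threshold separated near neighbors. Just inside it was the gain on chromosome 9 at 0.26, and just outside were 12 probes on chromosome 3 from 105936580 to 106103918 at 0.23 ± 0.14, where *H19*Δ1 was at 0.26. A further 19 autosomal segments past 0.25 held only 3 or 4 probes and were not counted, 4 higher and 15 lower, and in 11 of them a single probe was past 0.25. Of the segments of at least 5 probes that were not counted, 10 were 0.1 or more in size. In 6 of these 10 *H19*Δ1 had the same sign and was also 0.1 or more in size, within 0.03 of *H19*Δ2. The longest of the 6 was on chromosome 2, from 154345789 to 156830639 with 239 probes, at -0.16 ± 0.12 in *H19*Δ2 and -0.13 in *H19*Δ1. The other 4 were 3 of the stretches of chromosomes 6 and 12 described above and 24 probes on chromosome 2 from 34503310 to 34763562, which were at 0.17 ± 0.10 and at 0.02 in *H19*Δ1.

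Long stretches at a low level were a feature of several chromosomes. Of 84 uncounted segments with at least 100 probes, 14 were 0.05 or more in size, 8 higher and 6 lower, and they spanned 206 Mb. In 12 of the 14, *H19*Δ1 was between -0.03 and 0.01. On chromosome 8 the last 9.06 Mb, 672 probes from 122673683 to 131734335, were at 0.07 ± 0.12, with *H19*Δ1 at 0.0022. On chromosome 11, 168 probes from 37712631 to 42155517 were at -0.06 ± 0.12, with *H19*Δ1 at -0.0012. On chromosome 5 all 8 uncounted segments with at least 100 probes, whether or not they reached 0.05 in size, were below 0, between -0.08 and -0.02. The median of the chromosome was -0.04, the lowest of any autosome. In *H19*Δ1 the same 8 stretches were below 0 as well but nearer to it, between -0.015 and -0.0089, and the median was -0.012. These levels on chromosomes 5, 8 and 11 were below the noise of a single probe, and the position of their borders was less certain than that of the counted segments. Chromosomes 8 and 11, which are often trisomic in cultured mouse ES cells, had medians of 0.02 and 0.0040 in *H19*Δ2. The median of chromosome X was -0.19, and -0.31 in *H19*Δ1.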

How the data were processed

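The authors hybridized genomic DNA of each *H19*Δ line (Cy5) with DNA of AGH-OG-3 (Cy3) on a SurePrint G3 Mouse CGH array and deposited Agilent Feature Extraction output, version 11.5.1.1 per the file headers and 10.10 per the submitters' processing notes. In the deposited processed intensities the software had removed background and spatial trend and scaled the dyes linearly within the array, so no curve was fitted that could flatten wide copy number shifts. The deposited log10 ratios and the series matrix, which holds the same log10 values, served as alternatives.

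From the processed intensities log2(Cy5/Cy3) was taken without loess or quantile normalization. Control and outlier spots were dropped, spots of a probe were averaged, and 0.0080 was subtracted from the *H19*Δ2 array and 0.011 from the *H19*Δ1 array as the autosomal median. Segments were found by penalised least squares, with at least 3 probes each. Each border cost 2 ln(n) noise variances, n being the probes on that chromosome. Segments counted where the mean reached 0.25 in size and 5 probes or more were included. The segmentation was also run on simulated arrays, made by permuting the deviations of probes from their segment means and planting segments. Permuting removes the long low stretches of the real arrays, so the simulation does not cover them. Its outcome is not given here. Where Cy5 was not well above background, the higher of its own signal and the array's lowest Cy5 signal well above background served as a bound. No column belonged to another sample.

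The rule for named genes was to take them from an mm9 annotation or a gene column, and neither was used here, so the fixed gene lists gave no result. The array, the threshold and the lists were chosen with earlier results of these data known. Alternatives were other signals, centrings, spot filters and segmentation settings. The number of arrays limits the precision. Software was numpy 2.4.6, pandas 2.3.3, numba 0.67.0 and matplotlib 3.10.9 under Python 3.11.15. Normexp came from limma 3.58.1 under R 4.3.3.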

Additional observations from a re-analysis of the deposited data

Results flagged for a closer look

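At 7 of the 15 segments of *H19*Δ2 the 2 lines lay on opposite sides of AGH-OG-3, each with a log2 ratio of at least 0.2 in size. The difference was not tested, since there was 1 array per line. *H19*Δ2 minus *H19*Δ1 was 0.90 for the gain of chromosome 2 that starts at 112290454 and 0.90 for the gain of chromosome 5. It was 0.87 for chromosome 4, 0.95 for the gain of chromosome 6 that starts at 55782881 and 0.94 for chromosome 17. For the losses it was -4.34 (chromosome 3) and -4.61 (chromosome 9), where Cy5 of *H19*Δ2 was near background at 8 of 16 and 4 of 7 probes.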

How the results depend on the processing

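Over 56 results, 520 alternative values were computed; 499 stayed within the SD over probes or autosomes, or within 1.5 times a count or share, 21 moved further and 0 turned a called sign. Of 135 alternative levels of the segments in *H19*Δ2, 132 stayed within that spread. All 15 segments were met again with outlier spots kept and with each of 3 other centrings. They were also met with the series matrix and with the log ratio as deposited. Those settings hold the same ratios as the processed signals and gave the same levels to the digits given here. Their agreement was fixed in advance, and the counts above include them. Normexp and the median over probes each missed the gain on chromosome 11, and a penalty 4 times as large missed it with the loss on chromosome 2 and the gain on chromosome 9.

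The 3 losses were the least stable count. There were 6 at a threshold of 0.15, 18 with at least 3 probes, 1 with at least 10 probes and 5 with a penalty 0.5 times as large. Their share of probes, 0.0180%, became 0.201% at 0.15, 0.0465% with at least 3 probes, 0.00991% with at least 10, 0.00868% with probes well above background in both channels only and 0.00929% without joining; the last 2 settings missed the loss on chromosome 9, which fell below 5 probes. At a threshold of 0.5 only 7 of the 15 segments were met again, the deep losses and the 5 gains of 0.5 or more. The gains missed were those of chromosomes 4, 9, 11, 13, 14 and 17 and the second of chromosome 6. The gains then numbered 6, as that of chromosome 12 was split at its lower step. At 0.75 there were 0 gains and a share of 0%. A threshold of 0.5 with at least 3 probes and no joining, chosen after seeing the data, gave 13 losses and 0.0291%. Normexp, which adds an offset to both channels, brought the deep losses to -1.31 on chromosome 3, -1.70 on chromosome 9 and -1.94 at the engineered locus. An adjustment for GC content could not be run without probe sequences. No paired analysis was possible because only 1 array per line was hybridized. In the deep losses, probes whose Cy5 was near background give bounds only.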
